A study of Mus musculus with 8 samples.

Results

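The interferon regulatory factor (IRF) genes examined here were Irf1, Irf2, Irf3, Irf4, Irf5, Irf7, Irf8 and Irf9, which are 8 of the 37310 annotated mouse genes and 8 of the 22380 that are protein-coding. They are named family members, and no measured value entered the rule that lists them, although the set was chosen with earlier results of these data known. For NFATc2, every binding summit within 100 kb of a transcription start site (TSS) of the gene was taken. For H3K4me3, the methylation of histone H3 at lysine 4 found at the starts of active genes, every peak that overlapped the gene or lay within 1 kb of a TSS was taken.

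IRFs are transcription factors that share a DNA-binding domain and recognise GAAA repeats known as interferon-stimulated response elements. Some of them stand at the end of microbial sensing pathways and switch on interferon genes, others carry or limit the response to interferon, and a further pair directs the development of dendritic cells (DCs), macrophages and lymphocytes. NFATc2 is a calcium-regulated transcription factor that enters the nucleus once the phosphatase calcineurin has removed its phosphates, and it often binds DNA beside AP-1.

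The material was D1, a long-term splenic DC line of C57BL/6 origin. NFATc2 carrying a V5 tag, expressed from a transgene in addition to the protein of the cells, was mapped once the cells had met curdlan, a β-glucan ligand of dectin-1, at 10 μg/ml for 30 min. H3K4me3 was mapped in non-treated (NT) cells, after 2 h with 10 μg/ml curdlan, and after 2 h with curdlan together with FK506, an inhibitor of calcineurin. The question for NFATc2 was where it bound, and that for H3K4me3 was whether the mark moved with dectin-1 stimulation and with the inhibitor. Each of these 4 experiments rested on a single ChIP library and a single input library. Replicate spread is therefore unknown, conditions were not tested against each other, and the 95% intervals below cover counting error only. The lists describe whole cultures, so fewer cells with the mark and less of the mark per cell cannot be told apart.

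The NFATc2 library held 14377535 ChIP tags, and the H3K4me3 libraries held 16662316 (NT), 21289349 (curdlan) and 19468498 (curdlan with FK506). A peak of H3K4me3 near a TSS was present in NT cells for 8 of 9 dendritic cell markers, with Flt3 lacking one, for 1 of 5 T cell markers (Lck), and for none of 4 B cell, 2 NK cell and 4 fibroblast markers. The share of ChIP tags inside peaks was 57.9% for NT, 52.8% for curdlan and 51.3% once FK506 was added. Across genes, fold enrichment over input shifted by a median of 0.73 (curdlan against NT) and -0.27 (FK506 added against curdlan alone) on the log2 scale.

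The sequences below are from mm9, plus strand, and each spans 100 bp to either side of an NFATc2 summit. They are shown as the sites nearest to Irf1, Irf2, Irf5 and Irf8, the next site of Irf5 and of Irf8, and the 2 sites with the most tags at Irf4. Capitals mark the NFAT core GGAAAA and the AP-1 site TGANTCA on either strand.
Irf1, chr11:53576381-53576581, 7035 bp upstream: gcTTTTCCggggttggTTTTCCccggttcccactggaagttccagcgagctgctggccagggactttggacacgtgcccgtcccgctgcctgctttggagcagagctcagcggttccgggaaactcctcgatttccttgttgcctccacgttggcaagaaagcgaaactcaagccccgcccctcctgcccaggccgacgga
Irf2, chr8:47863655-47863855, 38656 bp downstream of the TSS, in an intron: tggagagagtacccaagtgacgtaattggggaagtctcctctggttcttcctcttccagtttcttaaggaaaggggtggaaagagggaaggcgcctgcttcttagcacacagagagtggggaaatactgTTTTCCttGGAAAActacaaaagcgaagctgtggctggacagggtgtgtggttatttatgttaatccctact
Irf4, chr13:30830993-30831193, 10002 bp upstream: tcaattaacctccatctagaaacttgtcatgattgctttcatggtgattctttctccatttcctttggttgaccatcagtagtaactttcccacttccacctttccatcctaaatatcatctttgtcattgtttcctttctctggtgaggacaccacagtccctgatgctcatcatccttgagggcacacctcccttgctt
Irf4, chr13:30884237-30884437, 43242 bp downstream of the TSS: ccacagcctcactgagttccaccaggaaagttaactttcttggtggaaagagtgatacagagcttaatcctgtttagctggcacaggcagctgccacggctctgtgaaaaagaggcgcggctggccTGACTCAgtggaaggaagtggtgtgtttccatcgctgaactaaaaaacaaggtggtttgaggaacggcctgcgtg
Irf5, chr6:29475861-29476061, 664 bp upstream: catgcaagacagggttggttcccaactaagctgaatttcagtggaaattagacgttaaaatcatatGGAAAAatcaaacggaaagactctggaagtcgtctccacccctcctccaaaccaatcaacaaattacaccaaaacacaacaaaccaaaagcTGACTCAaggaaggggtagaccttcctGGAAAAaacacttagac
Irf5, chr6:29473577-29473777, 2948 bp upstream: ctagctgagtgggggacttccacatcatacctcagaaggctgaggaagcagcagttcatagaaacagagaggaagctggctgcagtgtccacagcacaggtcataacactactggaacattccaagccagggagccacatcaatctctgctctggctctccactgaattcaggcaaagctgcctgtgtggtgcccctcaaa
Irf8, chr8:123239192-123239392, 20966 bp upstream: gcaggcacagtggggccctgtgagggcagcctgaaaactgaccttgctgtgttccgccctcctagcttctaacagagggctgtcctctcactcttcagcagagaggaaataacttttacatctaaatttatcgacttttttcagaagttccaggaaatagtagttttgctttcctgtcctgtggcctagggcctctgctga
Irf8, chr8:123233171-123233371, 26987 bp upstream: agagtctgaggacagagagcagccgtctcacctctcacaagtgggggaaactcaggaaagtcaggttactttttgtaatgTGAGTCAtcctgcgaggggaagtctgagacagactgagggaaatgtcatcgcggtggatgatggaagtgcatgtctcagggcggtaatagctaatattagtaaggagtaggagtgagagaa

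The letters differed between these sites. The Irf5 window at 664 bp held 2 copies of the NFAT core and an AP-1 site. The Irf2 intron held 2 NFAT cores on opposite strands, reading away from each other, with 2 bases between them. The Irf1 window held 2 NFAT cores on the minus strand near its edge. Neither Irf4 window held GGAAAA, although the downstream one held an AP-1 site, and of the Irf8 windows only the one at 26987 bp held a match, again to AP-1. Over all sites near the 8 genes, the NFAT core was found at 12 of 28, against 45.6% of all NFATc2 summits and 18.0% of windows 1 kb to either side of them. An AP-1 site was found at 8 of 28, against 21.8% of all summits and 6.15% of the flanking windows. The PU.1 site GAGGAAGT was in 1 of 28 windows, at Irf4, against 9.27% of all summits.

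The 250 bases before the 5′ end of each gene were searched for sites of the interferon response: the gamma-activated sequence (GAS) TTCNNNGAA and GAAANNGAA, the core of the interferon-stimulated response element. The promoters with a match are shown on the strand of the gene, which is the plus strand for each, with those matches in capitals.
Irf1 promoter, chr11:53583266-53583515: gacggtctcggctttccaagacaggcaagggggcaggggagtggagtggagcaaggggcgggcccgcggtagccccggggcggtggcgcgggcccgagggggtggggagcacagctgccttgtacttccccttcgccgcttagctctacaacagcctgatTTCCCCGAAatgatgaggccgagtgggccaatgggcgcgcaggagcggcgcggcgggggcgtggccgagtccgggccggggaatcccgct
Irf2 promoter, chr8:47824849-47825098: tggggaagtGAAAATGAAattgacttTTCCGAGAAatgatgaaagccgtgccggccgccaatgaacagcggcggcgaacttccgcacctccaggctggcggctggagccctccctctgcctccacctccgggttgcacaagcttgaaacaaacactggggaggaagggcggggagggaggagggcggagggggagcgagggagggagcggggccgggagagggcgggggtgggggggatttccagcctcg
Irf8 promoter, chr8:123260008-123260257: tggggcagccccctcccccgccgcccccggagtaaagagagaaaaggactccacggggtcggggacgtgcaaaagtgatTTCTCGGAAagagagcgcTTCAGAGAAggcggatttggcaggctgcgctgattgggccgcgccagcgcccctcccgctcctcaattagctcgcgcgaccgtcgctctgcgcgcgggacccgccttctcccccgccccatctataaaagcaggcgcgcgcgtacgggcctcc

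GAS letters stood in 3 of 8 promoters, against 6.83% of all 22380 protein-coding promoters. Irf8 held 2 copies, starting at -171 and -153, and Irf1 held 1 at -90. In Irf2 the copy at -224 overlapped an NFAT core at -226. The response element core was found in Irf2 alone, at -241, against 7.55% of promoters. No member promoter held TGANTCA, which 6.00% of promoters hold. Only the stretch before the outermost annotated 5′ end was searched. Irf1 and Irf7 have 11 annotated TSSs each, Irf3 has 9, Irf5 and Irf8 have 7 each and Irf9 has 6. Stretches before their other TSSs were not searched, so a gene without a match here may hold one there. Around the NFATc2 summits, GAS letters were in 6 of 28 windows, against 12.0% of all summits, and the response element core in 1 of 28, at Irf1, against 12.8%. In the Irf5 window at 664 bp the GAS match overlapped the downstream NFAT core. A match is a description of the letters and does not show that a factor was bound.

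Within 100 kb, every one of the 8 genes had at least 1 NFATc2 summit. This was no rare property, since 55.3% of protein-coding genes and 49.2% of all genes had one. The genes differed in how many sites they had and how near these lay. Irf4 had 10 sites, a number reached by only 82 protein-coding genes (0.366%), followed by Irf5 with 5, Irf3 with 4 and Irf2 with 3. This rank counts every listed peak, and 5 of the 10 Irf4 sites had a p of 1e-10 or less. Irf8 and Irf9 had 2 each and Irf1 and Irf7 had 1 each. The median was 2.5 sites per gene, and it was 1 over protein-coding genes. Of the 28 sites, 14 had the member as their nearest protein-coding gene and 10 lay in an H3K4me3 peak of the curdlan list, as 23.3% of all NFATc2 summits did. The median site held 83 tags against 63 over all NFATc2 peaks, and 10 of 28 had a p of 1e-10 or less. The share of all NFATc2 peaks at that p was not counted, so this count has no baseline.

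**Figure D1:**
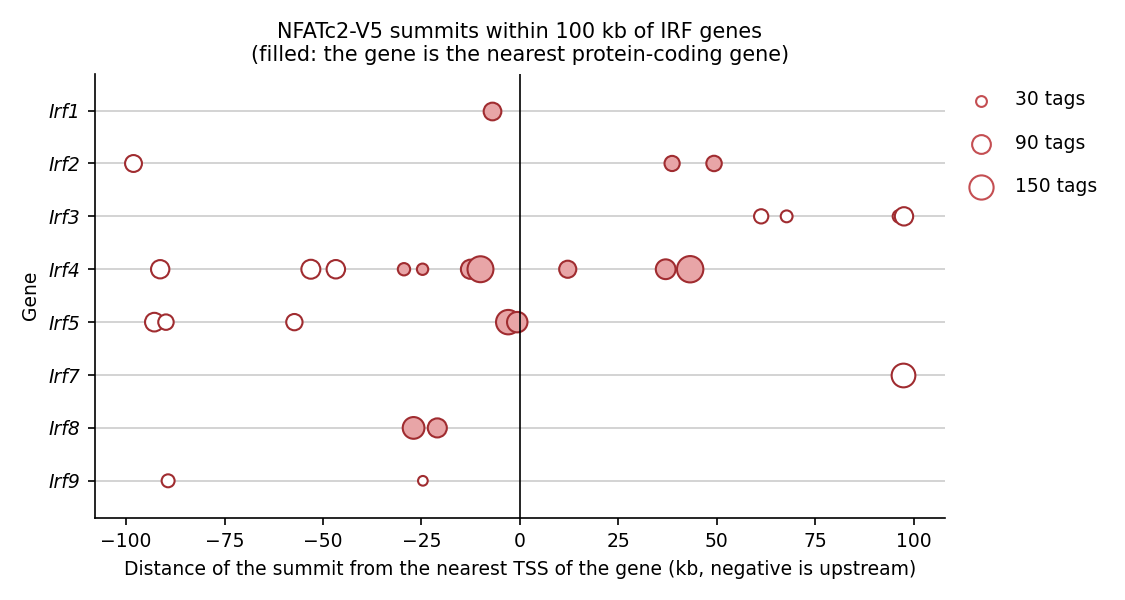
Distance of each NFATc2-V5 summit from the nearest TSS of the IRF gene, in kb with negative values upstream, for the 8 genes. Circle area is proportional to the number of tags, filled circles are sites whose nearest protein-coding gene is the IRF gene, and the 10 sites of Irf4 and the 2 sites close to the Irf5 start stand out against the single distant site of Irf7.

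Irf5 (chr6:29476625-29491869, plus strand) relays Toll-like receptor signals to inflammatory cytokine genes, and it had the nearest site of any member. The summit 664 bp upstream held 107 tags at a p of 1.3e-10, and the one 2948 bp upstream held 153 tags at a p of 4.1e-16. Both lay inside the H3K4me3 domain of the gene in all 3 lists. The other 3 sites, 57257 to 92812 bp upstream, held 61 to 89 tags and lay nearest to Atp6v1f, a subunit of the vacuolar proton pump, or to Flnc, which encodes a filamin.

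Irf4 (chr13:30841095-30858796, plus strand) is needed for certain DC subsets and for activated lymphocytes. Its sites spread over both sides, with 7 upstream and 3 downstream of the TSS, and together they held 956 tags, or 66.5 when scaled to 1000000 ChIP tags of the library (tags scaled in this way are called RPM below). The most tags were at 43242 bp downstream (178 tags, p of 2.3e-68) and at 10002 bp upstream (172 tags, p of 3.5e-52), which placed them at percentiles 91.5 and 90.7 of all NFATc2 peaks. The other 8 sites held 33 to 100 tags. One of these, 12153 bp downstream with 75 tags, had its summit in a coding exon of Irf4. Irf4 was the nearest protein-coding gene of 7 sites, and the 3 farthest upstream were nearer to Dusp22, a dual specificity phosphatase gene. The pseudogene Gm11370 lay 7447 bp from the site at 10002 bp.

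Irf8 (chr8:123260258-123280594, plus strand) directs the development of monocytes and of cross-presenting DCs. Its 2 sites lay 20966 and 26987 bp upstream, with 93 and 121 tags, in an intron of the annotated gene Gm20388 that spans this stretch. Irf8 was the nearest protein-coding gene by TSS for both, while the annotated miRNA gene AC114819.1 started 211 bp from the nearer one. Neither had a p of 1e-10 or less, the values being 5.2e-09 and 7.7e-08.

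Irf1 (chr11:53583516-53591876, plus strand) encodes an activator induced by interferon-γ, and Irf2 (chr8:47825099-47932812, plus strand) encodes a factor that competes with it for the same elements. Irf1 had a single site, 7035 bp upstream, with 80 tags and a p of 1.3e-06. The nearest sites of Irf2 were both in introns, at 38656 bp with 59 tags and at 49308 bp with 61 tags. Its remaining site, 98304 bp upstream with 73 tags, was nearer to another gene. With Irf5, Irf1 was 1 of 2 members with a summit within 10 kb, a distance met by 16.3% of protein-coding genes.

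Irf3, Irf7 and Irf9 had no site of which they were the nearest gene. Irf3 (chr7:52253018-52258218, plus strand) and Irf7 (chr7:148448605-148452380, minus strand) encode the factors that kinases activate downstream of nucleic acid sensors, and Irf9 (chr14:56222408-56228867, plus strand) encodes the DNA-binding part of the interferon-activated complex ISGF3. The 4 sites of Irf3 lay 61274 to 97540 bp downstream with 36 to 86 tags and were nearest to Prrg2, Rcn3 or Fcgrt. The site of Irf7 held 144 tags but lay 97208 bp away, and the TSS of Rnh1, which encodes a ribonuclease inhibitor, was 1013 bp from it. Of the Irf9 sites, the one 24626 bp upstream had 24 tags, at percentile 5.32 of all NFATc2 peaks, and was 370 bp from a TSS of the proteasome activator gene Psme1. The other, at 89316 bp with 43 tags, was nearest to Cpne6.

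All 8 genes had an H3K4me3 peak at a TSS in each of the 3 conditions. Over all 37310 annotated genes, of which 22380 are protein-coding, 35.6%, 35.4% and 35.3% had a peak in these 3 lists. Those shares also count peaks that overlapped a gene away from its TSS. They were not counted for protein-coding genes alone.

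Levels of different genes are compared as RPM per kb of peak. In NT cells this density was 25.7 at Irf4, 23.8 at Irf3, 21.3 at Irf1, 19.7 at Irf5, 13.3 at Irf2, 12.6 at Irf7 and 9.69 at Irf8, beside a median of 14.0 over all genes with a peak, and Irf9 lay between Irf1 and Irf5. Irf7 and Irf8 lay below the median gene and 5 others above it. The value of Irf2 pools 3 peaks and was below the median, while its promoter peak alone had 18.4, above it, and its distal peaks had 7.29 and 3.81. The counting intervals of neighbours overlapped for Irf4 and Irf3, for Irf1 and Irf9, for Irf9 and Irf5, and for Irf2 and Irf7, and not for Irf3 and Irf1, Irf5 and Irf2, or Irf7 and Irf8. With curdlan, the values ran from 10.8 at Irf8, whose interval overlapped that of Irf7 at 11.4, to 23.1 at Irf4. With curdlan and FK506 they ran from 10.2 at Irf7, whose interval overlapped that of Irf8 at 11.7, to 21.0 at Irf3. Irf4 stood at 15.8 there with a second, sparse peak counted, and its main peak alone had 22.6.

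The domains of Irf5 and Irf4 were among the longest of all genes. Irf5 was covered over 10.6 kb in NT cells, at percentile 98.1 of summed peak length, and Irf4 over 6.52 kb, at percentile 90.2. Irf7, Irf8 and Irf3 had the shortest domains in NT cells, at 2.64, 3.08 and 3.81 kb, against a median of 3210 bp. The total length given for Irf2, 9.01 kb, was made of 3 separate peaks.

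**Figure D2:**
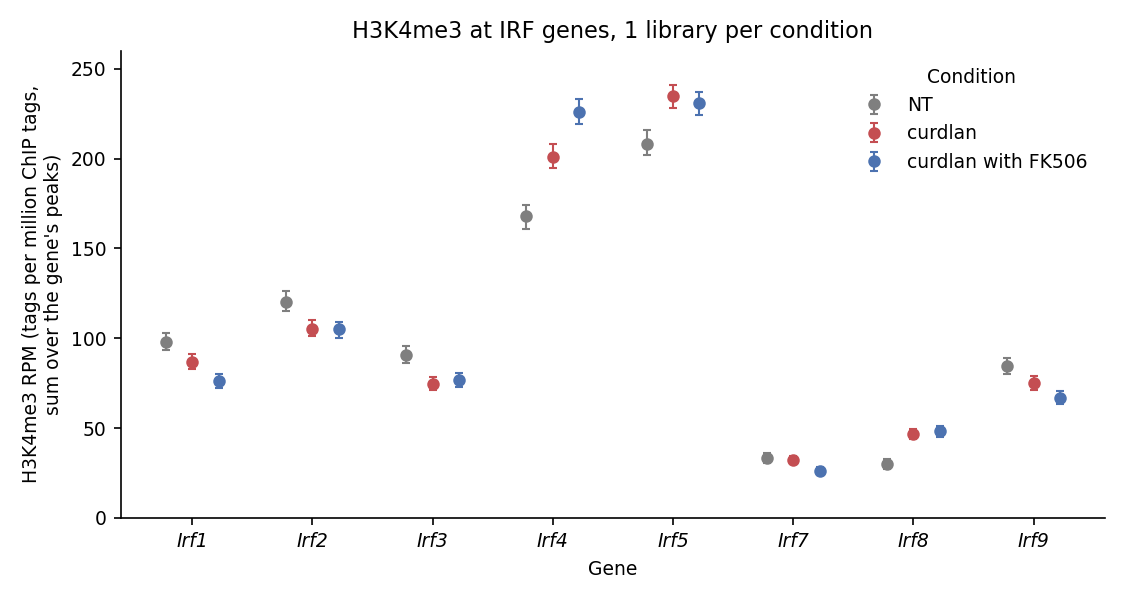
H3K4me3 RPM, tags scaled to 1000000 ChIP tags, summed over the peaks of each IRF gene (vertical axis) in the 3 conditions; points are single libraries and bars are exact 95% Poisson intervals of the count. Irf8 rose from 29.9 (NT) to 46.6 (curdlan) and had 48.1 with FK506, and Irf4 went from 168 to 201 and 226.

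Changes between conditions are given as log2 ratios of RPM, less the median ratio over all genes that had a peak in each of the 2 lists. The subtracted medians were -0.13 (curdlan over NT), -0.04 (curdlan with FK506 over curdlan) and -0.18 (curdlan with FK506 over NT). A gene was called changed past 1.5-fold. The 3 comparisons share libraries, the curdlan one standing in both of the first pair, so they are not independent.

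With curdlan, 1 of the 8 genes was called higher, Irf8, and none was called lower. Over all 13019 genes with a peak in both lists, 3.77% were called higher and 1.87% lower, and a count of 1 gene cannot be read as a property of the family. The median centred change of the 8 genes was 0.02, with 4 above and 4 below 0.

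Irf8 had 498 tags in NT cells, 993 with curdlan and 937 with curdlan and FK506, that is 29.9, 46.6 and 48.1 RPM. Both stimulated libraries were above the NT library and close to each other. The centred change with curdlan was 0.77 (95% interval 0.62 to 0.93), or 1.71-fold, at percentile 97.8 of all genes. The peak also lengthened, from 3083 to 4299 bp, with 4101 bp in the presence of FK506, and most of the gain lay inside the gene, where the edge moved from 1921 to 2978 bp past the 5′ end. Per kb of peak the centred change was 0.34, so under that measure Irf8 was not called.

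Irf4 and Irf5 followed with smaller differences that did not reach 1.5-fold. Irf4 had 2791 tags in NT cells, 4289 with curdlan and 4402 with curdlan and FK506, or 168, 201 and 226 RPM. Irf5 had 3474, 4994 and 4489 tags, or 208, 235 and 231 RPM. For both, the stimulated libraries lay above NT. The centred differences with curdlan were 0.40 (0.33 to 0.47) for Irf4 and 0.30 (0.24 to 0.36) for Irf5, at percentiles 92.7 and 88.4. Their domains were longer by 1.34 and 1.15 times, beside a median of 1.03 times over all genes. Both values depended on the measure. That of Irf4 was 0.83 by fold enrichment over input, past the call, and 0.02 per kb of peak, and that of Irf5 was 0.02 by fold enrichment and 0.16 per kb.

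The other 5 genes had centred differences between -0.15 and 0.08 with curdlan. The lowest was that of Irf3, with 90.9, 74.6 and 76.8 RPM in NT, curdlan and FK506 and a centred difference of -0.15 (-0.26 to -0.05). Irf7 had 33.3, 32.0 and 25.9 RPM and a difference of 0.08 (-0.09 to 0.24). Irf9 had 84.4, 75.0 and 66.8 RPM, Irf2 had 120, 105 and 105, and Irf1 had 97.9, 87.0 and 76.0. In RPM all 5 were lower with curdlan than in NT cells, and relative to the median gene the intervals of Irf1, Irf2, Irf7 and Irf9 included 0. The Irf1 domain measured 4589 bp in NT cells, 6186 bp with curdlan and 5253 bp with FK506, and its length ratio with curdlan stood at percentile 93.9, with a centred difference of -0.42 per kb of peak.

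**Figure D3:**
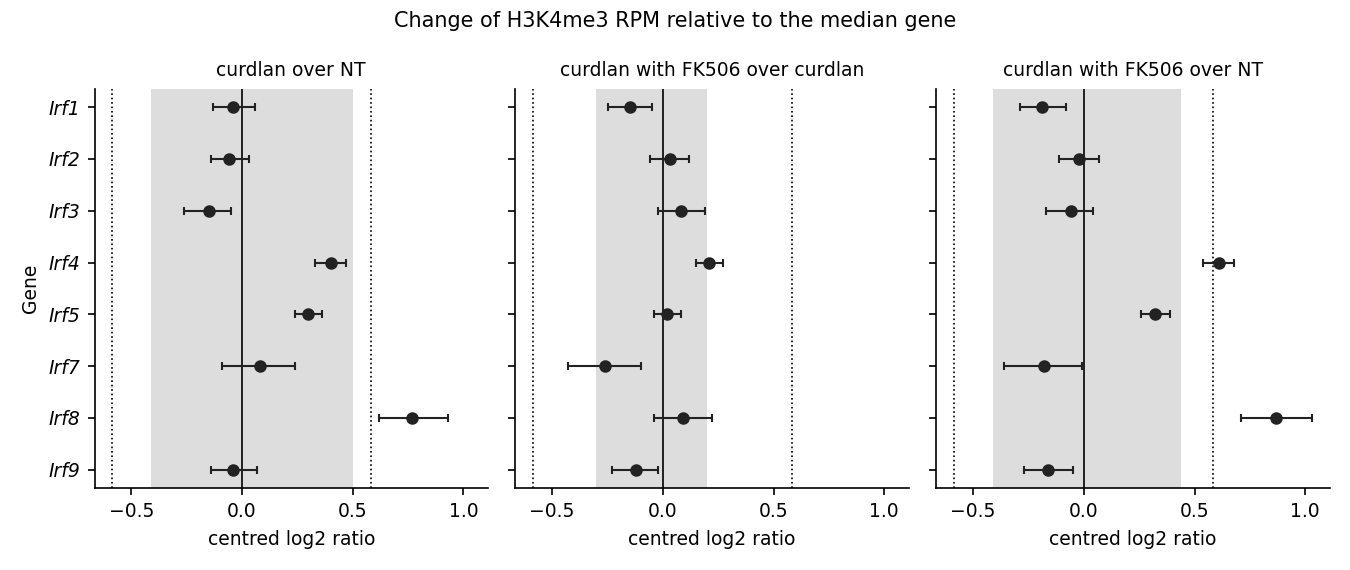
Centred log2 ratio of H3K4me3 RPM for the 8 IRF genes in the 3 pairs of conditions, with exact 95% counting intervals; the grey band holds the middle 90% of all genes and dotted lines mark 1.5-fold. Irf8 lies past the line with curdlan over NT, Irf8 and Irf4 with curdlan and FK506 over NT, and no gene with curdlan and FK506 over curdlan.

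With FK506 added to curdlan, none of the 8 genes was called in either direction, against 0.592% of 12996 genes called higher and 1.45% called lower. The median centred difference was 0.02 and the range ran from -0.26 to 0.21. Irf8 differed by 0.09 (-0.04 to 0.22) and Irf5 by 0.02 (-0.04 to 0.08).

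Irf7 had the lowest value with the inhibitor, -0.26 (-0.43 to -0.10) at percentile 5.77 of all genes, followed by Irf1 at -0.15 (-0.25 to -0.05) and Irf9 at -0.12 (-0.23 to -0.02). The sign of the Irf1 value turned under other measures, to 0.50 by fold enrichment over input and 0.05 per kb of peak. Irf4 had the highest, 0.21 (0.15 to 0.27) at percentile 95.4. Part of the Irf4 value came from a second peak found only in that list. It covered 4898 bp with 253 tags at a fold enrichment of 6.20 and an FDR of 2.94%, from 8413 to 13310 bp past the 5′ end, and it contained the intragenic NFATc2 site of Irf4. The main Irf4 domain alone held 2791, 4289 and 4149 tags over 6518, 8740 and 9420 bp, and with it alone the difference with FK506 was 0.12. With both peaks, the Irf4 value was -0.53 per kb of peak, and it was -0.03 by fold enrichment. By fold enrichment over input, 4 of the 8 genes passed 1.5-fold, so calls by that measure and by tags did not match. Irf2 and Irf8 passed upward (0.68 and 0.69) and Irf3 and Irf9 downward (-0.71 and -0.72). The share of all genes passing by this measure was not counted, so whether 4 of 8 is unusual cannot be told.

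Against NT cells, the library with curdlan and FK506 had 2 of the 8 genes called higher, Irf8 at 0.87 (0.71 to 1.03) and Irf4 at 0.61 (0.54 to 0.68), and none called lower. Over 12997 genes, 3.02% were called higher and 1.95% lower. Irf5 stood at 0.32 (0.26 to 0.39) and the other 5 between -0.19 and -0.02. The call of Irf4 rested on its second peak, since the main peak alone gave 0.52, below 1.5-fold.

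**Figure D4:**
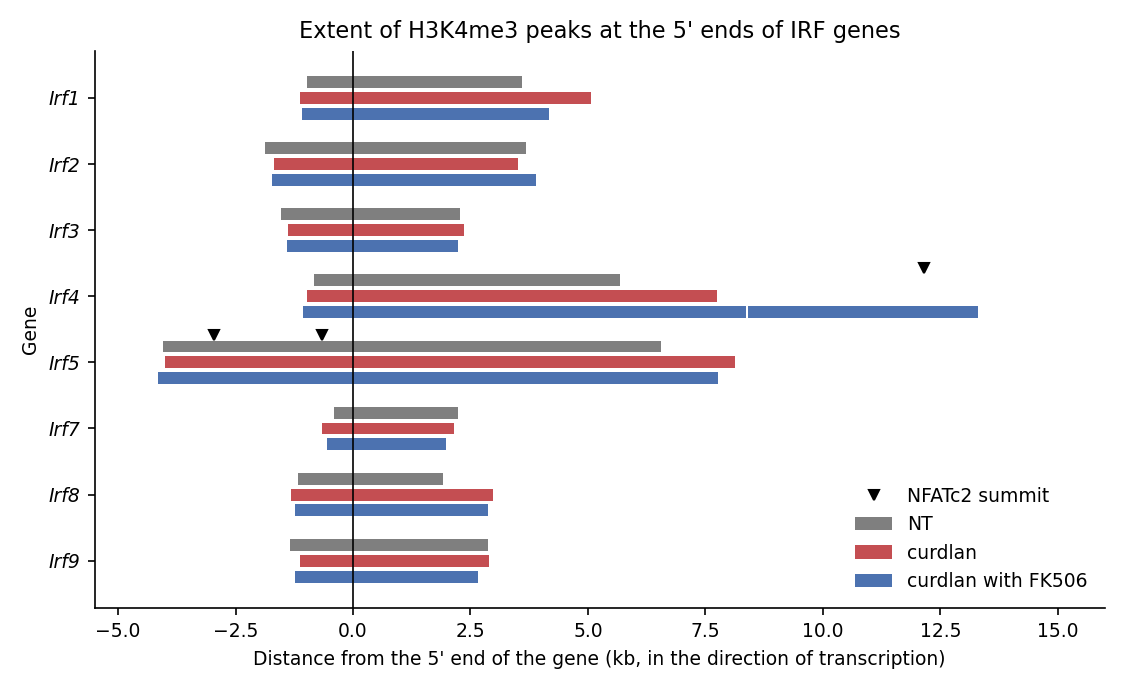
Extent of the H3K4me3 peaks around the 5′ end of each IRF gene in the 3 conditions, in kb along the direction of transcription, with NFATc2 summits of the same stretch as triangles; the 2 distal peaks of Irf2 in each list lie beyond the plot. The downstream edge moves outward by over 1 kb with curdlan at Irf1, Irf4, Irf5 and Irf8, and the second Irf4 peak appears only with FK506.

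By length, 5 of 8 genes had longer domains with curdlan than in NT cells, as did 63.3% of all genes, and the curdlan library was also the deepest of the 3. With FK506, 2 of 8 were longer than with curdlan alone (39.2% of all genes), and 4 of 8 were longer than in NT cells (55.3%). Irf2 had 3 peaks in each list. The 1 in its intron, at 37954 to 39402 bp in NT cells, had 176, 214 and 184 tags in the 3 conditions and enclosed the NFATc2 summit printed above. Toward the 3′ end, the peak counted in NT cells was not the one counted in the other lists. The NT peak had an FDR of 12.36%, and the other had 0.06% with curdlan and 14.32% with FK506. With peaks of p 1e-10 or less only, the centred Irf2 change with curdlan was 0.04 in place of -0.06.

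Some of these peaks could not be assigned to the IRF gene alone. The Irf3 peak covered the start of Bcl2l12, which is transcribed in the opposite direction from 1064 bp away. The Irf2 peak covered the start of the noncoding RNA Gm16675, 230 bp away, and the Irf1 peak covered that of Gm17334 on the other strand. The peaks of Irf4, Irf5, Irf7, Irf8 and Irf9 held no TSS of another gene.

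The protein-coding genes whose 2 changes (curdlan over NT, and FK506 with curdlan over curdlan) lay nearest to those of Irf8, among 11197 with a peak in all 3 lists, were Tpi1, 2010005H15Rik and Ntn1, at distances of 0.013, 0.035 and 0.045 on the log2 scale. Tpi1, a glycolytic enzyme gene, had 883, 1749 and 1640 tags in NT, curdlan and FK506. Ntn1, the gene of the guidance molecule netrin-1, had only 70, 141 and 137 tags. These were the nearest points in a plane of 3 libraries and carry no statement on shared function.

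Genes of the wider pathway were counted in 4 lists, beside the shares of all genes called. Of 20 sensors, adaptors and kinases upstream of IRFs, 18 had a peak in both the NT and curdlan lists, 1 was called higher with curdlan and none lower, against 3.77% and 1.87% of all genes, with a median of 0.03 beside 0.00 over all genes. The one was Traf6, the ubiquitin ligase of Toll-like receptor signalling, with 745, 1467 and 1093 tags in NT, curdlan and FK506 and a centred change of 0.76. The RNA sensor gene Ifih1 and the kinase gene Irak2 had differences of 0.51 and 0.50, and the receptor gene Tlr4 had -0.44, all short of the call. With FK506 over curdlan, 1 of 19 was called lower and none higher, against 1.45% and 0.592% of all genes. It was the kinase gene Ikbke, at -0.61, with 84 tags in the curdlan list, 49 with FK506 and no peak in the NT list.

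Of 9 interferon receptor, JAK and STAT genes, 8 had a peak in both lists of each comparison. None was called in either, where 3.77% of all genes were called higher and 1.87% lower with curdlan, and 0.592% higher and 1.45% lower with FK506 over curdlan. The medians were -0.01 with curdlan and 0.01 with FK506 over curdlan. Jak2, a kinase of the interferon-γ receptor, had 401, 413 and 405 RPM in NT, curdlan and FK506, and 9 NFATc2 summits within 100 kb. Tyk2 had no peak in any list.

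Among 8 partners and cofactors, 1 was called higher with curdlan and none lower (3.77% and 1.87% of all genes), with a median of -0.01. With FK506 over curdlan none was called higher or lower (0.592% and 1.45% of all genes), with a median of 0.00. Batf, which pairs with Jun proteins and binds DNA with Irf4 or Irf8, had 787, 1406 and 1227 tags and a change of 0.62 with curdlan. Spi1, the gene of PU.1, had 3188, 4710 and 3872 tags and a difference of 0.34.

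Of 16 known IRF targets, 13 had a peak in both lists, 1 was called higher with curdlan and none lower, against 3.77% and 1.87% of all genes, and the median was 0.09. Rsad2, which encodes the antiviral enzyme viperin, had 92 tags in NT cells, 237 with curdlan and 118 with curdlan and FK506. Each count was below that of the median peak of its list (457, 581 and 508 tags). Rsad2 had no NFATc2 summit within 100 kb, where the other called list genes, Traf6, Ikbke and Batf, had 5, 5 and 4. It was called higher with curdlan (1.14) and lower with FK506 over curdlan (-0.83), where it was the single call of 13, against 1.45% of all genes called lower, and the list median was -0.18. Isg15 and Ifit1 had differences of 0.47 and 0.38 with curdlan and -0.18 and -0.33 with FK506 over curdlan, none of them called. Other targets were lower with curdlan: Mx1, Gbp2 and Usp18 had -0.45, -0.30 and -0.21, none of them called. With FK506 over curdlan, Mx1, Gbp2 and Usp18 had -0.03, 0.06 and -0.07, so the targets did not move together. Ciita, the master regulator of MHC class II genes, had -0.55 with curdlan, also short of the call. Ifnb1, Cxcl10 and Ccl5 had no peak in any list.

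**Figure D5:**
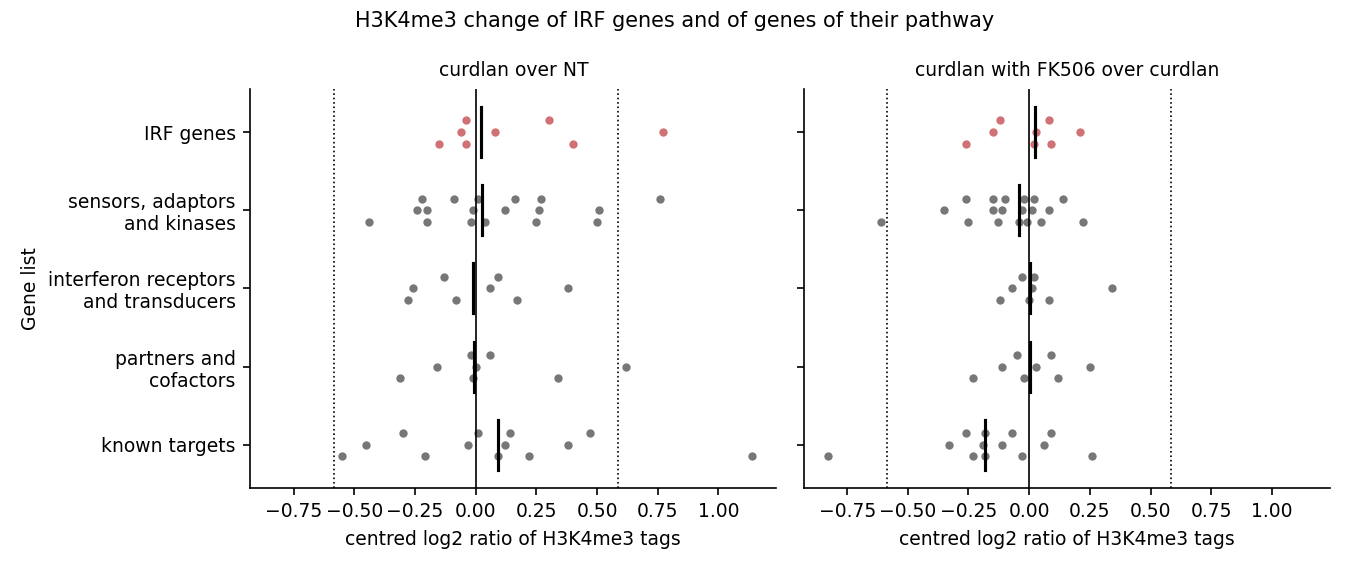
Centred log2 ratio of H3K4me3 tags with curdlan over NT (left) and with curdlan and FK506 over curdlan (right) for the IRF genes and 4 lists of genes of their pathway; each point is a gene with a peak in both lists, the bar is the median and dotted lines mark 1.5-fold. List medians lie between -0.01 and 0.09 on the left, and Rsad2 is the point farthest from 0 on both sides.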

How the data were processed

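The IRF genes and the lists around them were chosen with earlier results of these data known. The authors aligned single-end reads to the mm9 genome with bowtie 1. They ran MACS, version 1.4.2 by the headers, on each ChIP library against its own input at a p of 1e-05. The deposited lists give for each peak the count of tags, not normalized, and the fold enrichment, a ratio to the local input background. The deposited p-value is a −log10 score multiplied by 10, and the FDR is a percent. The totals before and after the removal of duplicate tags are equal in the headers.

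Gene models were those of Ensembl release 65 for mm9, the chromosomes X, Y and M included, and Spi1 and Irf2bpl were found under older symbols. Tags were divided by the ChIP total of the header, and ratios were centred on the median gene. Intervals are exact, from the Poisson distribution for levels and the conditional binomial for ratios. Named were the 8 genes, the genes nearer to the nearest NFATc2 summit, those sharing an H3K4me3 peak, the 3 genes most like Irf8, and list members past 1.5-fold; other list members were named after their values were seen. Some items are not reported here. The steps were tested on simulated data. Python 3.11.15, numpy 2.4.6, pandas 2.3.3 and scipy 1.17.1 were used.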

Additional observations from a re-analysis of the deposited data

How the results depend on the processing

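Every result rests on 1 library per condition, so differences between cultures or preparations cannot be separated from the treatments, and a gene without a listed peak may still carry signal below the calling threshold. No paired analysis was possible because each condition has a single ChIP library and no test was run. The count of 8 genes with an NFATc2 summit fell to 5 with peaks of p 1e-10 or less. It was 5 within 30 kb, 3 within 20 kb and 2 within 10 kb, and it stayed at 8 with an FDR limit of 5% or with distances to the 5′ end. Among these alternatives, the share over protein-coding genes was counted only for 10 kb, at 16.3%. For curdlan over NT, the 1 call became 2 by fold enrichment over input, 0 by tags per kb of peak, 2 at a lower fold threshold and 0 at 2-fold. For curdlan with FK506 over curdlan, 0 calls became 4 by fold enrichment. Shares of all genes called were counted only for the main setting, so counts of calls under the alternatives have no baseline. For curdlan with FK506 over NT, the 2 calls became 1 without centring, 4 by fold enrichment, 0 by tags per kb, 1 with the highest peak only, 1 with peaks within 1 kb of a TSS only, 1 with peaks of p 1e-10 or less and 0 at 2-fold. The Irf4 value of this last comparison turned from 0.61 to -0.51 by tags per kb, where the lengths of both its peaks enter the divisor. Its main peak alone lengthened from 6518 bp in NT cells to 9420 bp. The density of that peak, without centring, was 25.7 and then 22.6 RPM per kb. The median density over all genes with a peak was 14.0 and then 12.4. The cause of these shifts was not tested. Over 9 settings, the change of Irf8 with curdlan ranged from 0.34 to 0.88, that of Irf4 from 0.02 to 0.83 and that of Irf5 from 0.02 to 0.30. Centring on protein-coding genes, chosen after seeing the data, changed no count of calls, and the presence of H3K4me3 peaks at 8 genes held under each alternative run. The number of longer domains with curdlan was 5, and 6 with peaks of p 1e-10 or less.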
